A study of Homo sapiens with 40 samples.

Results

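The genes described are 10 subunits of the SWI/SNF chromatin remodeller, chosen by symbol: PBRM1, ARID2, BRD7, SMARCA2, SMARCA4, SMARCB1, SMARCC1, SMARCD1, ARID1A and ARID1B. All 10 of the listed symbols were found among the 62754 genes of each of 3 count tables, and all 10 passed the filter on low counts in each table. The list was drawn up because PBRM1 was lower after QKI shRNA. Values of the listed genes in the shRNA libraries are therefore given as a description, without a test, whereas the Jurkat knockdown and the untreated lines were not used to choose them.

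RNA was sequenced from 40 libraries in 10 groups of 4, all of established leukaemia lines labelled as T-cell acute lymphoblastic leukaemia (T-ALL), to study depletion of the RNA-binding protein QKI, a regulator of splicing and RNA stability. Jurkat cells were electroporated with QKI siRNA or with a control siRNA that has no target (NTC), and total RNA was taken. A virus brought QKI shRNA or NTC shRNA into cells labelled HPB-ALL. The labels give polyadenylated RNA for these cells and for the untreated lines, which were TALL-1, LOUCY, ALL-SIL, DND-41, KARPAS-45 and HPB-ALL. Cells labelled HPB-ALL and KARPAS-45 were grown in 20% serum and the others in 10%. Each arm of a knockdown is 1 cell line, and the design text calls the 4 libraries of each knockdown group biological replicates.

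SWI/SNF complexes use the energy of ATP to slide or evict nucleosomes, and so open DNA at enhancers and promoters to transcription factors. Each complex is built around 1 ATPase, either SMARCA4 (BRG1) or its paralogue SMARCA2 (BRM). SMARCB1, SMARCC1 and SMARCD1 are among the core subunits, though not every complex holds each of them. Canonical BAF complexes carry ARID1A or ARID1B, whereas PBAF complexes carry ARID2, PBRM1 and BRD7 instead. SMARCA4-containing complexes are needed for thymocyte development, and SWI/SNF genes are often mutated in cancer.

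QKI binds RNA at a short element whose DNA spelling is ACTAAC or ACTAAT. The strand of the messenger RNA was searched for these letters, in the principal transcript of each gene in GENCODE 29 on GRCh38, because QKI was the gene depleted. PBRM1 lies at chr3:52545352-52685917 on the minus strand, and its 5071-base principal transcript held no match. ACTAAC occurred once in the 5′ UTR of 2 of its 20 annotated transcripts, across an exon junction, so that its 30-base window spans chr3:52681793-52682093 with an intron inside. In their principal transcripts ARID2 held 4 matches, BRD7 3, ARID1A 2 and SMARCA2 1, while SMARCA4, SMARCB1, SMARCC1, SMARCD1 and ARID1B held none. Over all annotated transcripts, ACTAAC occurred in 7 of 9 for ARID2, 11 of 17 for ARID1A and 16 of 66 for SMARCA2. It occurred in 5 of 36 for ARID1B, 2 of 54 for SMARCA4 and 1 of 21 for SMARCB1, and in 0 for BRD7, SMARCC1 and SMARCD1. The windows below show the PBRM1 match and, from principal transcripts only, the ACTAAC matches of the other members, the SMARCA2 match and a coding match of BRD7. The element is in capitals.

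PBRM1, 5′ UTR of the minor transcripts: atttttgaatatACTAACactgaatcagca
ARID2, coding exon 20, chr12:45893653-45893682, plus strand: taaacacatccgACTAACagctgccttaat
ARID1A, coding exon 2, chr1:26729693-26729722, plus strand: ccatatggcgggACTAACccatactcgcag
ARID1A, coding exon 20, chr1:26779970-26779999, plus strand: gaagcaggcaccACTAACttatgaaaagga
SMARCA2, coding exon 23, chr9:2104058-2104087, plus strand: aaattgagagcgACTAATcaccgagtgctg
BRD7, coding exon 6, chr16:50340048-50340077, minus strand: aaactaatgtgtACTAATgccatgatttac

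Such short strings are common. Of 19659 principal transcripts of protein-coding genes, 23.5% held ACTAAC and 42.0% held either spelling. Among the 6442 transcripts of 3500 to 9000 bases these shares were 37.3% and 63.8%. A match is a description of letters and not of binding, and introns were not searched.

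Totals of gene counts, rounded to 4 digits, were 68380000 to 134200000 per Jurkat library, 81050000 to 134900000 per knockdown library labelled HPB-ALL and 44090000 to 83950000 per untreated library. The lowest count of any member in any library was 607, for SMARCA2 in untreated HPB-ALL. The knockdown libraries labelled HPB-ALL did not carry the markers of their label. Of 8 T-cell markers (CD3D, CD3E, CD3G, CD247, LCK, CD7, CD2 and CD5), 0 reached a level of 1 CPM (counts of a gene per 1000000 counts of the library, scaled with TMM factors) in every one of these libraries. Their sum was 0.4014 to 0.6294 CPM in controls and 0.4734 to 0.6414 CPM after QKI shRNA, against 2897 to 3733 CPM in untreated HPB-ALL. CD5 and LCK had no count in the 4 controls. The 8 myeloid markers were ELANE, AZU1, MPO, LYZ, CST3, CSF1R, CD14 and ITGAM. Of these, 6 (all but MPO and CD14) reached 1 CPM in every one of these libraries. The sum of all 8 was 3390 to 3549 CPM in controls and 2955 to 3085 CPM after QKI shRNA, against 15 to 34.42 CPM in untreated HPB-ALL. These cells are called the libraries labelled HPB-ALL below.

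QKI itself was lower in the treated libraries of each knockdown. In Jurkat it was 147.8, 176.1, 136.7 and 133.1 CPM in controls 1 to 4 and 24.9, 17.45, 18.18 and 25.31 CPM after siRNA. Its fitted log2 change was -2.79 (SE 0.167, edgeR quasi-likelihood adjusted p = 0.000129). Controls labelled HPB-ALL held 104.5, 103, 101.3 and 107.3 CPM, against 54.55, 54.87, 55.9 and 57.71 CPM after shRNA, with a fitted log2 change of -0.90 (SE 0.0349, adjusted p = 1.1e-07 by edgeR). The remaining QKI was thus a smaller share of control in Jurkat.

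PBRM1, the bromodomain protein that reads acetylated histones for PBAF, was the member with the largest difference after QKI shRNA. It stood at 120.7, 118.3, 120.1 and 119.4 CPM in the 4 control libraries labelled HPB-ALL. After QKI shRNA it stood at 80.59, 81.7, 82.29 and 84.63 CPM. Every shRNA library lay below every control, and the spread within each group was a few CPM. The means were 119.6 ± 1.03 and 82.3 ± 1.70 CPM (SD, n = 4), a log2 difference of -0.54 (SE 0.0319), or -31.2%. Over 13 analysis settings, which included leaving out each library, this difference ran from -0.553 to -0.524. The sum of the myeloid markers was also lower in the shRNA libraries, but the markers did not all move together. LYZ had means of 757.9 CPM in controls and 462.2 CPM after shRNA, and AZU1 572.9 and 413.6 CPM. CST3, CSF1R and ITGAM were also lower, whereas ELANE, the most abundant, had means of 1650 and 1714 CPM. The part of these markers in the result was not tested. In bulk RNA, fewer cells that express a gene and less RNA per cell cannot be told apart.

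In Jurkat, where QKI fell further, no difference in PBRM1 was detected. PBRM1 was 420, 431.4, 325.3 and 349.6 CPM in controls 1 to 4. After QKI siRNA it was 430.9, 376, 366.6 and 372.6 CPM. The groups overlapped, with the controls lying both above and below most siRNA libraries. The log2 fold change was 0.02 (SE 0.127, 95% interval -0.2627 to 0.2998, edgeR adjusted p = 1). This fit did not pair libraries by number, and with the number as a block the value was 0.03 (SE 0.0704). The difference between the knockdowns was not tested itself, and they differ also in cells, delivery and RNA selection, which cannot be told apart.

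**Figure D1:**
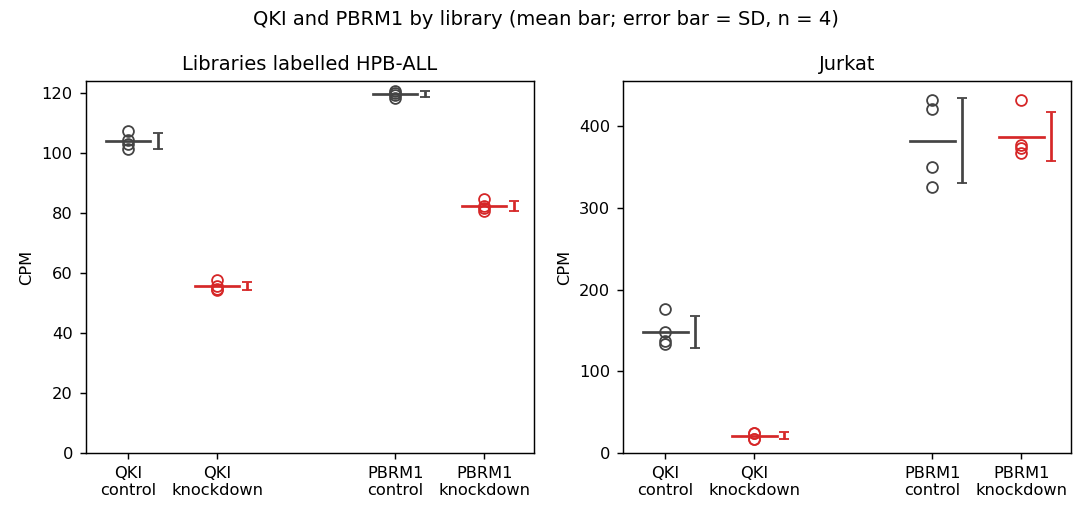
QKI and PBRM1 in CPM in every control (grey) and knockdown (red) library, for the libraries labelled HPB-ALL (left) and Jurkat (right). Points are libraries, short bars are means and error bars are SD of 4 libraries. On the left PBRM1 stands at 118.3 to 120.7 CPM in controls and at 80.59 to 84.63 CPM after shRNA, and on the right its groups overlap.

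The reads of PBRM1 could include those of genes on the opposite strand, because no strand setting of the counting is known, although the labels name a stranded kit for the cells labelled HPB-ALL. GNL3, which encodes a nucleolar GTP-binding protein, overlaps the 5′ end of PBRM1, and UQCC5 overlaps its 3′ end. GNL3, at a mean of 256 CPM, gave a log2 fold change of 0.02 after QKI shRNA (SE 0.0353, edgeR adjusted p = 0.735). UQCC5, at a mean of 2.43 CPM, gave -0.15 (SE 0.0895, edgeR adjusted p = 0.252). Neither overlapping gene passed the threshold where PBRM1 was lower, and the share of their reads in the PBRM1 counts was not tested.

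ARID2, the DNA-binding subunit that defines PBAF, overlapped between the shRNA arms. It was 47.56, 47.64, 49.33 and 46.19 CPM in controls labelled HPB-ALL and 46.88, 48.06, 49.93 and 51.78 CPM after QKI shRNA. All controls but control 4 lay within the shRNA range, and the log2 difference was 0.04 (SE 0.0405). Set per kilobase of annotated exon, the ratio of PBRM1 to ARID2 was 3.15 ± 0.082 in controls and 2.10 ± 0.0509 after shRNA (SD, n = 4). In Jurkat the same ratio was 2.07 ± 0.207 in controls and 2.10 ± 0.148 after siRNA. BRD7, the bromodomain partner of PBRM1 in PBAF, was 70.63, 71.98, 71.6 and 75.69 CPM in controls labelled HPB-ALL and 64.93, 67.33, 69.6 and 72.72 CPM after shRNA, again overlapping, with a log2 difference of -0.08 (SE 0.0415). ADCY7 overlaps BRD7 on the other strand and rose by 0.20 (SE 0.0379, edgeR adjusted p = 0.00323), so a share of reads between them is uncertain.

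Of the ATPases, SMARCA2 was 128.1, 136.3, 139.4 and 138.9 CPM in controls labelled HPB-ALL and 122.5, 119.5, 123.3 and 129.3 CPM after QKI shRNA. A single pair of libraries crossed, control 1 and shRNA 4, and the log2 difference was -0.13 (SE 0.0397). SMARCA4 was 211.5 to 225.3 CPM in controls and 213.3 to 221.6 CPM after shRNA, so its shRNA values lay inside the control range. Per kilobase, SMARCA2 stood at 0.525 ± 0.00944 of SMARCA4 in controls and 0.482 ± 0.0107 after shRNA (SD, n = 4).

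The remaining members overlapped between arms in the libraries labelled HPB-ALL. For the core subunits the log2 difference was -0.06 for SMARCB1 (SE 0.0336), 0.02 for SMARCC1 (SE 0.0443) and 0.08 for SMARCD1 (SE 0.0394). For the BAF-specific subunits it was 0.02 for ARID1A (SE 0.0445) and 0.09 for ARID1B (SE 0.0423). No call is counted over the members here, since PBRM1 was chosen on this contrast. For scale, 23.2% of the 17974 genes tested were called, 10.4% lower and 12.8% higher, and nothing about the members is read from these shares. PBRM1 alone did not overlap between arms, where 11.7% of genes lay lower without overlap and 14.5% higher. The median size of the log2 difference was 0.0686 over the members and 0.128 over all genes tested. The genes tested include genes at lower levels than any member, and no set of like level was compared.

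None of the 10 members was called in Jurkat by edgeR without pairing by number, and 0 of 10 had an unadjusted p below 0.05. DESeq2 and limma-voom also called none of them. Small p were rare over all genes in the unpaired fit, where an unadjusted edgeR p of 0.0258 ranked 70 from the smallest. In that comparison 1 of 21296 genes was called, 0.0047%, and that gene was QKI. Log2 fold changes of the members ran from -0.0902 for ARID1A to 0.0543 for SMARCC1. Their median size was 0.0336, against 0.108 over all genes tested. Here too the genes tested include genes at lower levels than any member, so these medians do not compare like with like. The 95% intervals, from the fit without pairing by number, differed in width. That of SMARCD1 ran from -0.1831 to 0.2391, and that of SMARCA4 from -0.5314 to 0.3808.

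Among Jurkat controls the SD of log2 CPM was largest for SMARCA4 (0.41), ARID1A (0.329) and ARID1B (0.293). SMARCA4 was 172.5, 187.5, 109.5 and 111.1 CPM in controls 1 to 4 and 178.7, 128.4, 123.9 and 120.1 CPM after siRNA. ARID1A was 149.9, 135.9, 97.64 and 95.78 CPM in controls and 156, 98.22, 100.2 and 95.8 CPM after siRNA. Libraries numbered 1 were high in each arm, and control 2 was high while siRNA library 2 was low. ARID1B controls followed the order of ARID1A, at 130.5, 109.7, 86.32 and 85.66 CPM. With the replicate number as a block, the SE of the SMARCA4 log2 fold change narrowed from 0.206 to 0.101 and its value was -0.05, and 0 of 10 members were called. For PBRM1 the paired value was 0.03 (SE 0.0704, edgeR adjusted p = 0.954).

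**Figure D2:**
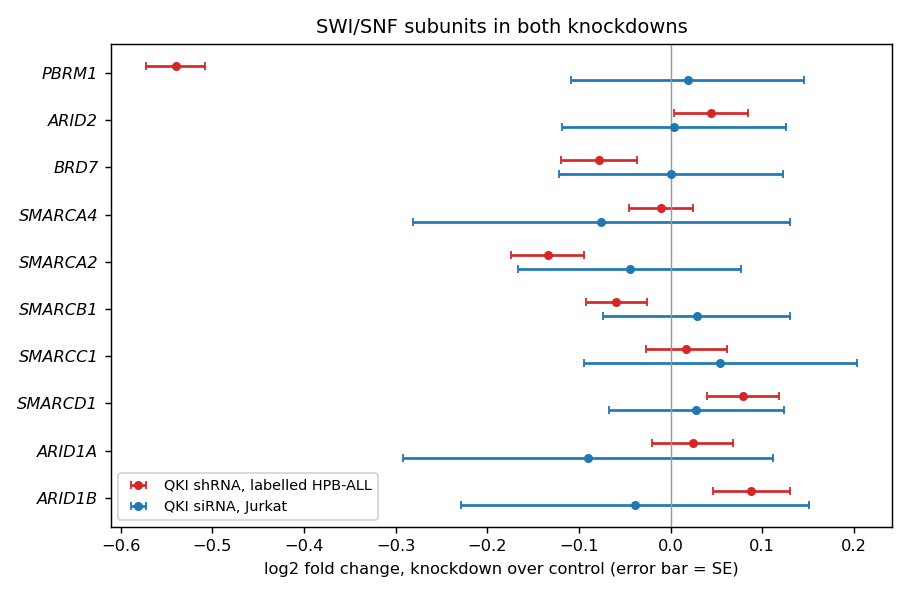
Log2 fold change of each member, knockdown over control, for QKI shRNA in the libraries labelled HPB-ALL (red) and QKI siRNA in Jurkat (blue). Points are fitted values and error bars are their SE (4 against 4 libraries). PBRM1 after shRNA lies at -0.54, and the other 19 points lie between -0.13 and 0.09.

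The other SWI/SNF subunits were read from a list of 21 genes, of which 20 were tested in each knockdown. The neuronal subunit ACTL6B had too few counts. In the libraries labelled HPB-ALL 4 of 20 were called higher and 0 lower, where 12.8% and 10.4% of genes were called in those directions. BCL7A, a nucleosome-binding accessory subunit, rose from 26.99 ± 0.869 to 31.9 ± 1.12 CPM (SD over 4 libraries), which is 0.24 on the log2 scale (SE 0.0413, edgeR adjusted p = 0.00167). Its paralogue BCL7B rose by 0.16 (SE 0.0373), and BRD9, the bromodomain subunit of the non-canonical complex, rose by 0.16 (SE 0.0402). DPF3, a histone reader, rose by 0.60 (SE 0.11) at a level near 1 CPM. In Jurkat edgeR called 0 of these 20 genes, also with the replicate number as a block. In the fit without the block 1 had an unadjusted p below 0.05. That gene was BCL7A, at 80.86 ± 4.96 CPM in controls and 66.04 ± 6.75 CPM after siRNA, or -0.29 on the log2 scale (SE 0.113, edgeR adjusted p = 1). Its siRNA values all lay below the controls, where 0.676% of genes did so. Its unadjusted edgeR p of 0.0258 ranked 70 among the 21296 genes tested.

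ATPases of other remodeller families were listed for comparison, 18 in all. In the libraries labelled HPB-ALL 17 were tested, and 3 were called higher and 1 lower, where 12.8% and 10.4% of all genes were called in those directions. CHD7 rose by 0.57 (SE 0.1) and CHD5 by 0.59 (SE 0.125), each near 1 CPM, and HELLS rose by 0.20 (SE 0.0448). CHD3, an ATPase of the NuRD complex, fell from 159.3 ± 6.2 to 136.9 ± 2.53 CPM (SD over 4 libraries), which is -0.22 on the log2 scale (SE 0.0373, edgeR adjusted p = 0.00165). In Jurkat edgeR called 0 of 18, also with the replicate number as a block. In the fit without the block 0 had an unadjusted p below 0.05. Such p were rare there, as an unadjusted edgeR p of 0.0258 ranked 70 among 21296 genes, so little is read from that count.

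Levels of every member differed among the 6 untreated lines. All 10 were called by an F test over the lines, where 98% of the 20348 genes tested were called. Over the 15 pairs of lines, 104 of 150 member tests were called, 69.3%, against 65.2% of all gene and pair tests. The range between the highest and lowest line mean had a median of 1.78 log2 units over the members, against 2.38 over all genes and 1.48 over the 9007 genes with a mean log2 CPM of at least 3. Libraries numbered 4 stood apart in several members. They were the highest of their line for PBRM1 in 5 of 6 lines and for SMARCA2 in 5 of 6, and the lowest for SMARCB1 in 5 of 6 and for SMARCA4 in 4 of 6. Without them 106 of 150 member tests were called, and with the replicate number as a block also 106. The members split by size of their range. It exceeded 2 log2 units in SMARCA2, SMARCC1, PBRM1, ARID2 and SMARCA4, was 1.42 in ARID1B, and stayed below 1 in BRD7, ARID1A, SMARCD1 and SMARCB1.

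**Figure D3:**
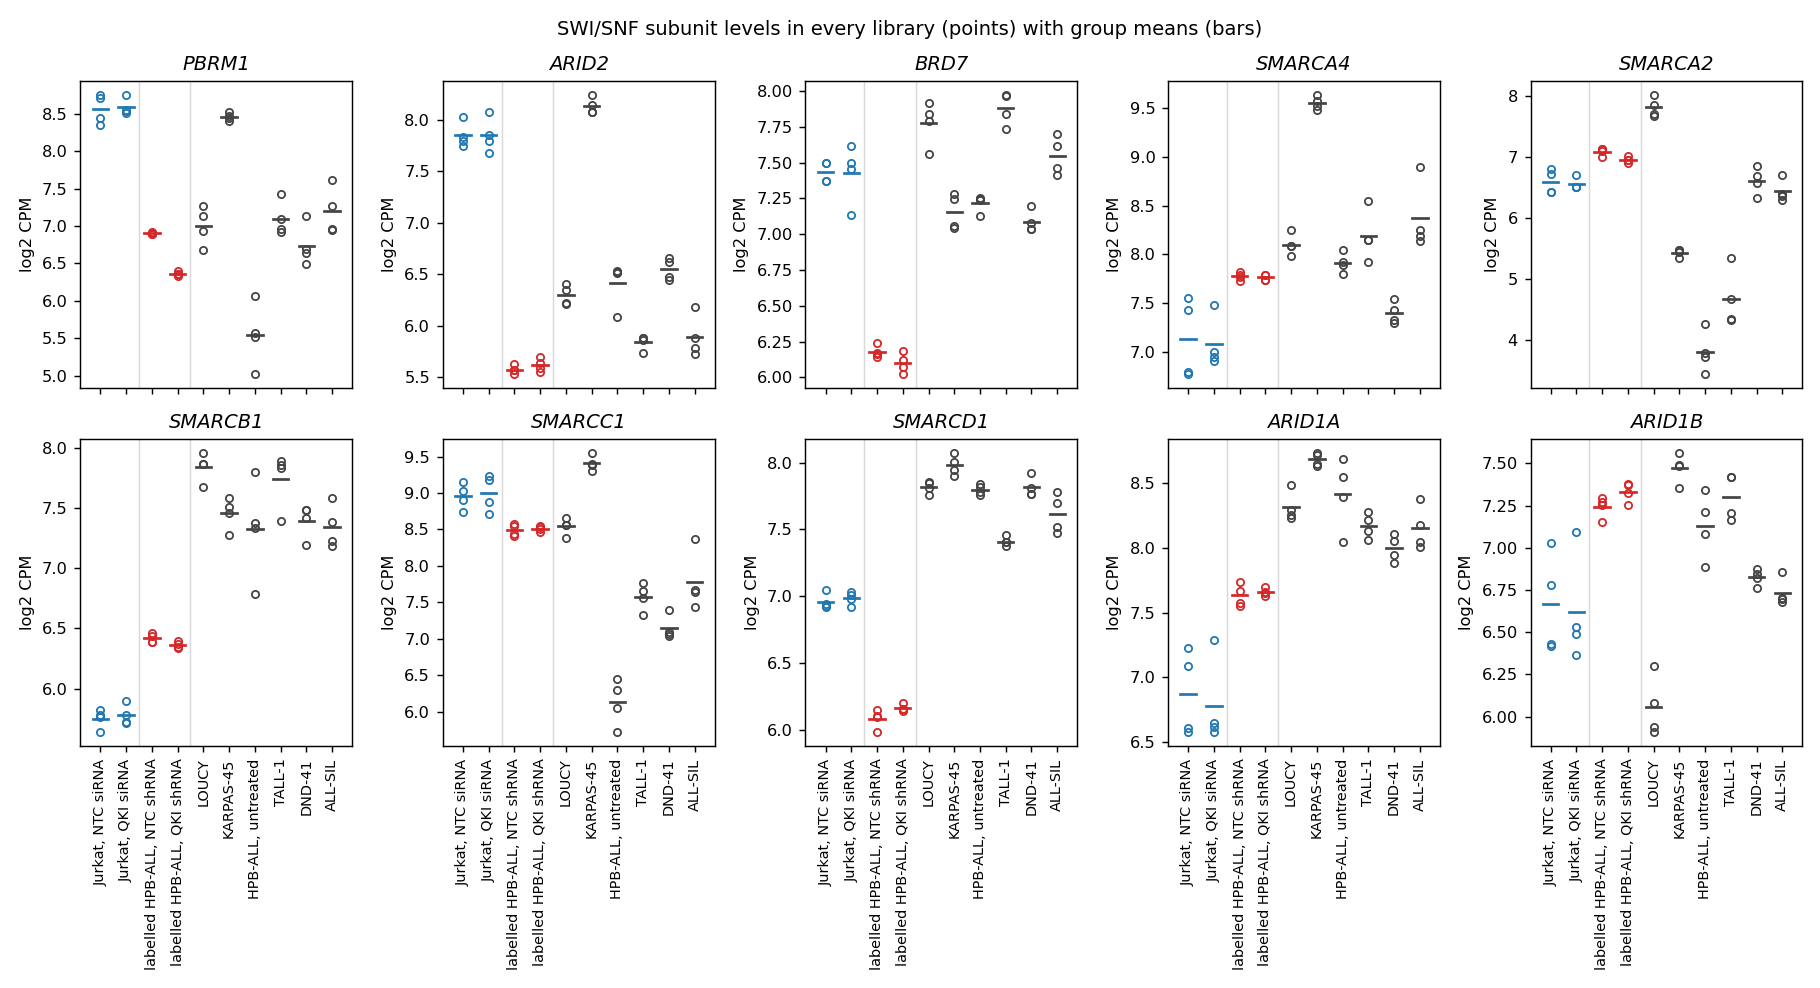
Log2 CPM of the 10 members in every library (points) with group means (bars), for Jurkat (blue), the knockdown libraries labelled HPB-ALL (red) and the 6 untreated lines (grey), each set of colours from its own count table and with its own y scale per gene. KARPAS-45 holds the highest mean of the lines for PBRM1, ARID2, SMARCA4, SMARCC1, SMARCD1, ARID1A and ARID1B, and LOUCY for SMARCA2 and SMARCB1.

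PBRM1 was highest in KARPAS-45, at 369.5, 347.6, 338.1 and 355.8 CPM. It was lowest in untreated HPB-ALL, at 32.35, 45.93, 47.37 and 66.87 CPM, and the range was 7.56-fold. Between them, means were 149.3 ± 33.8 CPM in ALL-SIL, 138.4 ± 23.5 in TALL-1, 129.7 ± 22.5 in LOUCY and 108.2 ± 22.2 in DND-41 (SD, n = 4). KARPAS-45 stood above ALL-SIL by 1.24 log2 units (SE 0.189, edgeR adjusted p = 2.21e-06), and DND-41 stood above HPB-ALL by 1.17 (SE 0.189, edgeR adjusted p = 9.63e-06). Neighbours in the order from ALL-SIL to DND-41 were not told apart by the test, but ALL-SIL stood above DND-41 by 0.46 log2 units (SE 0.187, edgeR adjusted p = 0.0401). Without the libraries numbered 4 LOUCY stood above DND-41 by 0.35 log2 units (edgeR adjusted p = 0.0284). QKI was scarce in KARPAS-45 (6.705 ± 0.776 CPM, SD, n = 4) and had 0 counts in each of 4 LOUCY libraries, where a count of 0 allows up to 3 counts. These lines with little QKI differed in PBRM1 by 1.44 log2 units, KARPAS-45 being higher (SE 0.19, edgeR adjusted p = 2.48e-07). GNL3 had the same highest and lowest lines, with 226 ± 13.4 CPM in KARPAS-45 and 41.8 ± 18.4 CPM in HPB-ALL, and its log2 CPM correlated with that of PBRM1 at r = 0.744 over 24 libraries that share lines.

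Among the PBAF partners, ARID2 was also highest in KARPAS-45, at 281.2 ± 15.2 CPM, and lowest in TALL-1, at 57.27 ± 2.68 CPM (SD, n = 4), a 4.91-fold range. KARPAS-45 stood above the next line, DND-41, by 1.58 log2 units (SE 0.11, edgeR adjusted p = 2.92e-12). DND-41, HPB-ALL and LOUCY followed, then ALL-SIL and TALL-1. Neighbours from DND-41 to LOUCY were not told apart by the test, but DND-41 stood above LOUCY by 0.25 log2 units (SE 0.108, edgeR adjusted p = 0.0419). BRD7 kept within 0.79 log2 units, from 136 ± 7.53 CPM in DND-41 to 235.9 ± 18.1 CPM in TALL-1. The overlapping ADCY7 was 198 ± 13.7 CPM in LOUCY and 138 ± 16.6 CPM in ALL-SIL, and 50.5 CPM or less in the other lines. The lowest mean thus fell in a different line for each PBAF subunit, but not every lowest line was told apart from the next. In BRD7 DND-41 was not separated from HPB-ALL (edgeR adjusted p = 0.269), nor in ARID2 TALL-1 from ALL-SIL (edgeR adjusted p = 0.652). Per kilobase, PBRM1 to ARID2 was 0.696 ± 0.148 in HPB-ALL and between 1.44 and 3.15 in the other 5 lines.

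SMARCA2 had the widest range of the members, 16-fold. It was 207.1, 257.5, 230.6 and 203.4 CPM in LOUCY and 10.82, 13.71, 13.23 and 19.06 CPM in HPB-ALL. Means were 98.12 ± 14.7 CPM in DND-41, 87.05 ± 11.8 in ALL-SIL, 43.15 ± 1.91 in KARPAS-45 and 26.6 ± 9.74 in TALL-1 (SD, n = 4). Each step of this order passed the test except that from DND-41 to ALL-SIL (log2 difference 0.17, SE 0.183, edgeR adjusted p = 0.457), and 14 of 15 pairs were called. SMARCA4 followed another order. It was 749.1 ± 34.1 CPM in KARPAS-45, above the next line by 1.15 log2 units (SE 0.144, edgeR adjusted p = 1.16e-07). Next came ALL-SIL (338.7 ± 92.5 CPM), TALL-1 (295.6 ± 54.9), LOUCY (274.9 ± 21.3) and HPB-ALL (242 ± 16.7), and DND-41 was lowest, at 169.4 ± 13.1 CPM. Neighbours from ALL-SIL to HPB-ALL were not told apart by the test, but ALL-SIL stood above HPB-ALL by 0.49 log2 units (SE 0.143, edgeR adjusted p = 0.0048).

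The ATPases were also set against each other in each line. Per kilobase of annotated exon, SMARCA2 amounted to 0.692 ± 0.0345 of SMARCA4 in LOUCY and 0.491 ± 0.0631 in DND-41 (SD, n = 4). It amounted to 0.230 ± 0.0652 in ALL-SIL, 0.0802 ± 0.0416 in TALL-1, 0.0503 ± 0.0151 in HPB-ALL and 0.0490 ± 0.00378 in KARPAS-45. The libraries of LOUCY (0.648 to 0.721) and DND-41 (0.419 to 0.567) did not overlap. Those of HPB-ALL (0.0386 to 0.0724) overlapped both KARPAS-45 (0.0452 to 0.0529) and TALL-1 (0.0580 to 0.143), which did not overlap each other. The ratio was under 1 in every library of every group. These ratios were described and not tested.

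**Figure D4:**
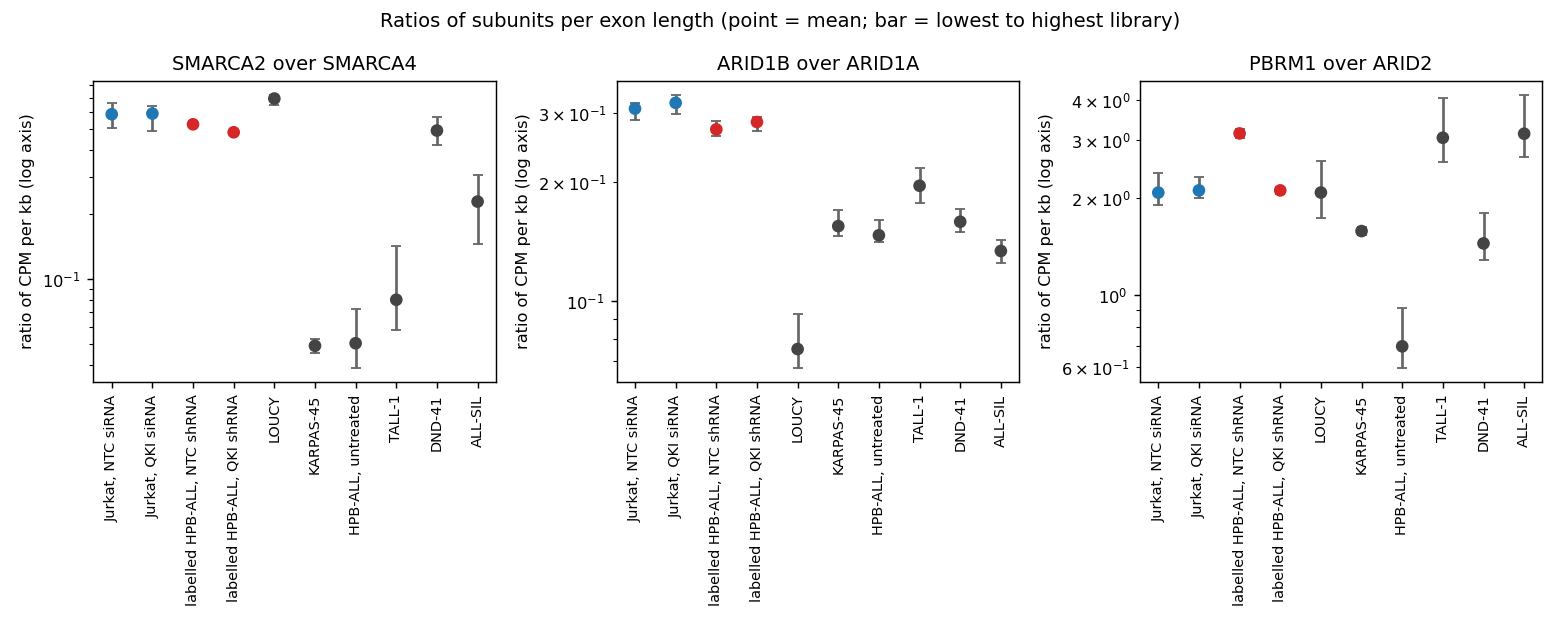
Ratio of levels per kilobase of annotated exon for 3 pairs of subunits in each group, on a log axis, with points for means of 4 libraries and bars from the lowest to the highest library. SMARCA2 over SMARCA4 falls from 0.692 in LOUCY to 0.0490 in KARPAS-45, and PBRM1 over ARID2 falls from 3.15 to 2.10 after QKI shRNA.

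Core subunits varied unequally across the lines. SMARCC1, a scaffold around which the core assembles, was 633.7, 665.3, 675.9 and 752.5 CPM in KARPAS-45 and 66.2, 78.63, 87.19 and 52.87 CPM in HPB-ALL, a 9.72-fold range. LOUCY lay at 373.3 ± 29.5 CPM, ALL-SIL at 227.3 ± 70.9, TALL-1 at 191.7 ± 24 and DND-41 at 142.8 ± 17.6 (SD, n = 4). Only ALL-SIL and TALL-1 were neighbours that the test did not separate (log2 difference 0.25, SE 0.166, edgeR adjusted p = 0.225). SMARCB1, the subunit that contacts the nucleosome acidic patch and is lost in rhabdoid tumours, ranged from 165.2 ± 45.7 CPM in HPB-ALL and 163.3 ± 21.1 in ALL-SIL to 230.3 ± 18.6 CPM in LOUCY. No neighbouring lines were told apart in SMARCB1 by the test, and 6 of 15 pairs were called. Without the libraries numbered 4, 8 of 15 pairs were, and TALL-1 stood above KARPAS-45 by 0.37 log2 units (edgeR adjusted p = 0.00789). DERL3, which overlaps SMARCB1 on the opposite strand, was 65.3 ± 111 CPM in LOUCY and 3.25 ± 0.616 CPM in DND-41, the next line. In LOUCY the SD of DERL3 thus exceeded its mean, whereas SMARCB1 was 249.1, 233.8, 233.8 and 204.6 CPM in the libraries of that line. The share of DERL3 reads in the SMARCB1 counts was not tested. SMARCD1 ranged from 170 ± 3.96 CPM in TALL-1 to 253.1 ± 13.5 CPM in KARPAS-45, and 8 of 15 pairs were called, or 5 with no filter on low counts and 12 with DESeq2.

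For the BAF-defining subunits, ARID1A had a narrow range, from 255.5 ± 17.4 CPM in DND-41 to 410.6 ± 14.2 CPM in KARPAS-45 (SD, n = 4), with no neighbours called, although KARPAS-45 passed HPB-ALL without the libraries numbered 4 (log2 difference 0.33, edgeR adjusted p = 0.0245). ARID1B was highest in KARPAS-45 (178 ± 10.6 CPM) and TALL-1 (158.2 ± 14.9 CPM). It was lowest in LOUCY, at 66.93 ± 8.61 CPM, below ALL-SIL by 0.67 log2 units (SE 0.105, edgeR adjusted p = 4.54e-06). LOUCY thus held the highest SMARCA2 and the lowest ARID1B of the 6 lines. Per kilobase of all annotated exons ARID1B was 0.0753 of ARID1A in LOUCY and 0.196 in TALL-1. Per kilobase of the longest transcript these ratios were 0.168 and 0.436, and LOUCY remained lowest and TALL-1 highest.

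Correlations of log2 CPM among members were computed over the 24 untreated libraries, which share lines and are not 24 independent points. PBRM1 and SMARCC1 had the highest, at r = 0.874, and SMARCC1 was the most alike of 26 SWI/SNF genes to PBRM1. SMARCA2 and ARID1B had the lowest, at r = -0.755. PBRM1 correlated with ARID2 at 0.58 and with BRD7 at 0.0437. Among 8774 genes with a mean log2 CPM of at least 3, those most like PBRM1 were KIFAP3 (r = 0.975), LONP2 (0.968), NONO (0.967), RFC1 (0.965) and PSIP1 (0.964). Each of these 5 was highest in KARPAS-45 and lowest in HPB-ALL, as PBRM1 was. NONO, a paraspeckle protein, went from 300 ± 96.4 CPM to 1500 ± 104 CPM, and PSIP1, which encodes the chromatin-tethering factor LEDGF, from 112 ± 17.5 to 512 ± 57.9 CPM (SD, n = 4).

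Across the lines the other SWI/SNF subunits included genes with wider ranges than any member. All 20 that were tested were called by the F test, where 98% of all genes were, as were 234 of 300 pair tests, 78%, against 65.2% over all genes. BCL11A, a zinc-finger transcription factor counted with BAF, ranged over 10.81 log2 units between ALL-SIL and TALL-1. DPF3 ranged over 9.67 units between HPB-ALL and LOUCY, SMARCD3 over 5.88 between HPB-ALL and ALL-SIL, and DPF1 over 5.71 between DND-41 and HPB-ALL. Of the other remodeller ATPases all 18 were called, against 98% of all genes, and 189 of 270 pair tests were, 70%, against 65.2% over all genes. The ISWI ATPase SMARCA1 (7.99 units) and CHD7 (6.25 units) were each highest in LOUCY, and CHD9 ranged over 2.83 units and CHD5 over 2.42.

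**Figure D5:**
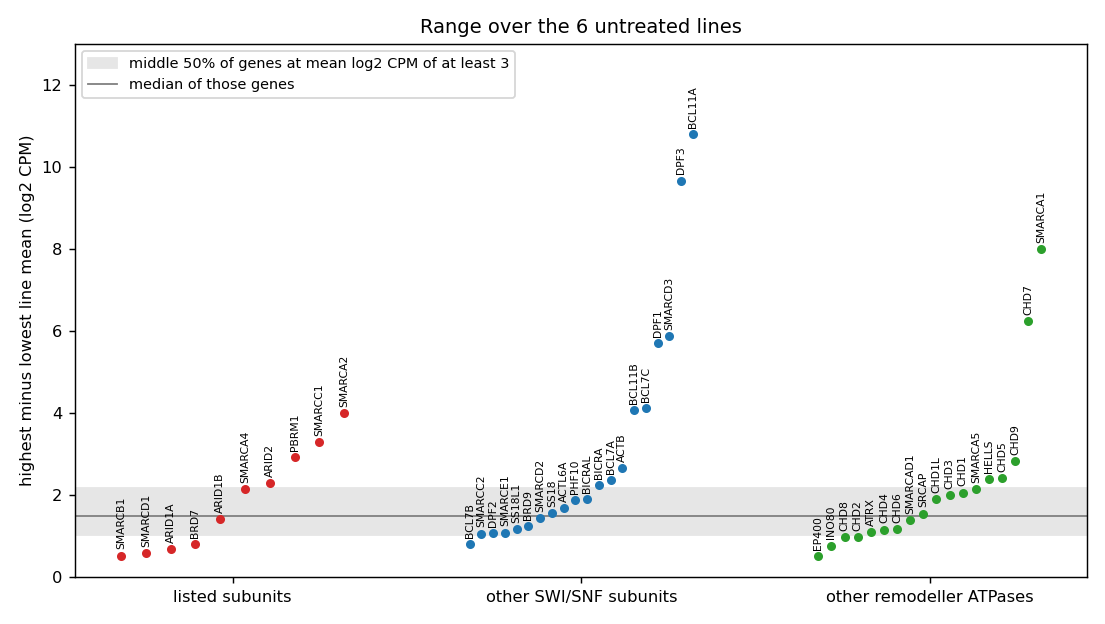
Range over the 6 untreated lines, as the highest minus the lowest line mean in log2 CPM, for the listed members (red), the other SWI/SNF subunits (blue) and ATPases of other remodellers (green), with the median (line) and middle 50% (band) of genes at a mean log2 CPM of at least 3. The members run from SMARCB1 (0.52) at the low end to SMARCA2 at the high end, and the median of those genes is 1.48.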

How the data were processed

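Each of the 3 deposited tables holds whole-number read counts, 1 row per gene. Trimmomatic 0.39, STAR 2.7.11b and GRCh38 are named in the submitters' processing notes, but no counting tool, strand setting or annotation release is. Rows that name no gene, 13.0% to 15.1% of reads in the table labelled HPB-ALL, were left out. For 2 LOUCY columns the heading does not settle which replicate they are, and they entered as unnumbered replicates. The controls of the Jurkat table are headed shNTC, although the labels say siRNA.

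Each table was tested with edgeR 4.0.16 in R 4.3.3, using filterByExpr, TMM, the quasi-likelihood F test and Benjamini-Hochberg adjustment over all genes tested at a threshold of 0.05. An SE is the size of the log2 fold change over the square root of F. CPM use TMM factors and were set within each table. Lengths and overlaps come from GENCODE 29. p-values measure the spread between these libraries. The fits were tested on simulated data.

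The members and lists were chosen with earlier results of these data known. Besides QKI and the members, the text names up to 4 called genes per list, direction and knockdown, the 4 widest ranges per list across lines, the 5 genes most like PBRM1, and genes that overlap a member. BCL7A in Jurkat was named after its values were seen.

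Same-numbered Jurkat libraries deviated together (correlations 0.733 to 0.877), and a replicate block was fitted as an alternative to the unpaired main fit. Other numbers gave -0.782 to 0.718 (median -0.553), so some libraries of unlike number also deviated together. What such libraries share is not in the labels. In the libraries labelled HPB-ALL same-numbered libraries did not deviate together (-0.206 to 0.036). In the lines same-numbered libraries gave -0.216 to 0.548 (median 0.108, against -0.0389 for other numbers), which is not above 0.1 in every pair, so they were left unpaired. Replicates differed beyond counting noise in each pair (chi-square per degree of freedom 12.7 to 348). The alternatives tried were no filter, RLE size factors, DESeq2 1.42.0, limma-voom (limma 3.58.1), a replicate block, leaving out each library, and the longest transcript as length. Leaving out all line libraries numbered 4 was added after seeing the data.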

Additional observations from a re-analysis of the deposited data

Results flagged for a closer look

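Over 10 members and 10 groups of 4 libraries, 11 of 100 groups had 1 library far from the other 3, where chance gives about 1 in 20 for independent values. The members share the same libraries, so the 100 are not independent and the count is not read against that rate. In Jurkat after QKI siRNA, library 1 stood above the others for 4 members. PBRM1 was 430.9 CPM there against 376 in the nearest library, SMARCA4 178.7 against 128.4, SMARCA2 103.4 against 91.04 and ARID1A 156 against 100.2. ALL-SIL library 3 was high for SMARCA4 (476.9 against 304.2 CPM) and ARID1B (115.6 against 104.1 CPM). TALL-1 library 4 was low for ARID2 (53.27 against 58.17 CPM) and SMARCB1 (167.9 against 227.2 CPM). HPB-ALL library 1 was low for ARID2 (68.1 against 91.56 CPM), and HPB-ALL library 3 was low for BRD7 (139.9 against 151.3 CPM). DND-41 library 4 was high for SMARCC1 (168.9 against 137 CPM).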

How the results depend on the processing

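In Jurkat 1 gene was called in the main analysis, 2 with DESeq2 and 9 with the replicate block; 0 of 130 member values under the alternatives were called. Member values there lay near 0, and 28 of the 130 changed sign: ARID2 was -0.00341 with no filter, and BRD7 was -0.00759 with no filter, -0.00719 with limma-voom and -0.00822 with the replicate block. Leaving out each Jurkat library gave -0.0503 to 0.0835 for PBRM1, -0.0782 to 0.0641 for ARID2, -0.0666 to 0.0878 for BRD7, -0.1 to 0.0315 for SMARCA2, -0.227 to 0.0731 for SMARCA4, -0.0138 to 0.0538 for SMARCB1, -0.0298 to 0.143 for SMARCC1, -0.29 to 0.0348 for ARID1A and -0.225 to 0.0944 for ARID1B; the cause was not tested. In the libraries labelled HPB-ALL 0 of 130 member values moved by more than the spread between libraries, and 3063 to 4375 genes were called (3063 with the replicate block). In the lines 0 of 300 member ranges moved, and 96 to 109 of 150 member tests were called. Of the neighbouring lines called, LOUCY above ALL-SIL in BRD7 was lost with the replicate block (adjusted p = 0.277), HPB-ALL above DND-41 in ARID1B without the libraries numbered 4 (0.0718), and ALL-SIL above TALL-1 in SMARCD1 under both (0.102 and 0.187). With the block, TALL-1 above KARPAS-45 in SMARCB1 (0.0374) and KARPAS-45 above HPB-ALL in ARID1A (0.0473) were called. Levels per length in LOUCY all rose with the longest transcript as length, a construction that shortens every gene. Depth did not limit the members, the lowest count being 607.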
